A study of Mus musculus with 8 samples.

Results

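The 38 genes described here encode the proteins that copy DNA in S phase: the factors that license and fire replication origins, the helicase, polymerases, clamp and ligase of the replication fork, the enzymes that supply its nucleotides, and the factors that rebuild chromatin and methylation behind it. They were taken by symbol from the deposited count table. All 38 were found among its 25140 named genes, and all 38 had more than 0.5 counts scaled to library size (CPM) in no fewer than 6 of the 8 libraries, the filter that left 13508 genes for testing. Before S phase, the origin recognition complex, Cdc6 and Cdt1 load the ring of Mcm2 to Mcm7 onto DNA, and Cdc45 and the GINS complex then turn that ring into an active helicase. Primase and the polymerases start and extend the new strands, PCNA, loaded by the RFC complex, tethers the polymerases, and Fen1 and Lig1 join the fragments of the lagging strand. Most of these genes are classical targets of the E2F transcription factors, so their RNA is low in resting cells and rises as cells enter S phase, which makes them a common measure of cycling cells in gastric epithelium and its tumors.

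The RNA came from cells carrying the epithelial surface protein EpCAM, sorted from antral gastric tumors of 8 mice, with 1 library per mouse. All 8 mice carried the gp130FF mutation of the cytokine receptor gp130, which gives rise to these tumors, and all were labelled as 18 weeks old and as taken 3 days after tamoxifen. The 4 Yap1WT mice (gp130FF; Yap1WT) kept Yap1. In the 4 Yap1KO mice (gp130FF;Yap1 flox/flox), tamoxifen switched on a Cre recombinase driven by the Tff1 promoter, so that Yap1 was deleted only in cells in which that promoter was active. The study's methods describe Yap1WT as mice with the same floxed Yap1 and Tff1-driven Cre, given vehicle in place of tamoxifen. This could not be settled from the labels. If so, tamoxifen itself and the loss of Yap1 cannot be told apart in the comparison of the groups. Its methods for these libraries give the age on the labels, and its results text a higher one. The mouse numbers in the labels fall into separate series. Replicates 1 and 2 of each group belong to the lower-numbered series and replicates 3 and 4 to the higher-numbered series. What the series stand for (litter, date or cohort) is not given in the labels, and both were present in both groups.

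Total counts ranged from 27607755 to 77483047 in Yap1WT and from 18229945 to 74278015 in Yap1KO. Yap1 itself had 65.0 to 79.0 CPM in the Yap1WT libraries and 21.5 to 30.1 CPM in the Yap1KO libraries (log2 difference -1.51 with standard error 0.13, adjusted p = 0.000208). Yap1KO replicate 4, the shallowest library, stood apart on the first principal component, with a score of 67.2 against -17.8 to 1.05 in the other libraries. By the RNA of Xist and Ddx3y, it was also the only Yap1KO library with a female pattern. Of Yap1WT, replicates 1 and 4 had the female pattern, and all remaining libraries had the male one. All 7 epithelial markers were expressed, with a summed level of 9996 to 12059 CPM in the Yap1WT libraries and 9343 to 11875 CPM in the Yap1KO libraries. Single markers moved apart within that sum. Epcam, by which the cells were sorted, was higher in Yap1KO (log2 difference 0.76, adjusted p = 0.00188), while the keratin Krt19 lay lower in every Yap1KO library without passing the test (-0.42, adjusted p = 0.100, and 0.00938 with DESeq2). Krt18 (0.48, adjusted p = 0.0840, and 0.0102 with DESeq2) and Cldn7 (0.61, adjusted p = 0.165) lay above 0. At an unadjusted p under 0.05, 3 of the 7 were higher and 1 lower, against 11.5% and 8.96% of all genes. A further 6 markers were of gastric mucous cells, among them the surface cells in which the Tff1 promoter is active. Of these, Gkn3 was higher (0.68, adjusted p = 0.0342). Tff1 (-0.53), Gkn1 (-0.62), Gkn2 (-0.95) and Muc5ac (-0.67) lay below 0 without passing edgeR's test. With DESeq2, Tff1 (adjusted p = 0.0229) and Gkn1 (adjusted p = 0.0366) were lower, and Gkn3 and Tff2 were higher. Markers of other cells were present at lower levels than the epithelial sum. The summed level of 12 endothelial markers was 203 to 726 CPM in the Yap1WT libraries and 673 to 1344 CPM in the Yap1KO libraries, all 12 had log2 fold changes above 0, and 2 passed the test by edgeR (6 with a term for the series of mouse numbers), 7 by DESeq2 and 9 by limma-voom. The summed level of 10 fibroblast markers was 104 to 811 CPM in the Yap1WT libraries and 348 to 1114 CPM in the Yap1KO libraries, with 9 above 0 and 0 past the test by edgeR, DESeq2 or limma-voom (0, 0 and 5 at an unadjusted p under 0.05). Of 14 leukocyte markers only 3 passed the filter, with a summed level of 8.64 to 15.9 CPM in the Yap1WT libraries and 8.14 to 12.9 CPM in the Yap1KO libraries. Of these, Cd68, found in macrophages, was higher in Yap1KO (1.06, adjusted p = 0.0469), and Ptprc, the common leukocyte antigen, lay lower in every Yap1KO library without passing the test (-1.17, adjusted p = 0.151). Cd8a was at 0 counts in all 8 libraries. The part of these markers in the results below was not tested. In RNA of bulk cells, fewer cells in S phase and less replication RNA per cell cannot be told apart.

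All replication genes were expressed, but at very different levels. On the deposited scale, log2 RPKM (log2 of reads scaled to library size and gene length), the mean level over the 8 libraries was highest for Pcna, the sliding clamp (5.45), Mcm6 (5.09), the ribonucleotide reductase subunit Rrm1 (4.61) and thymidine kinase Tk1 (4.46). It was lowest for Orc1, the largest subunit of the origin recognition complex (-0.29), and for cyclin E2, Ccne2 (0.01). At that low end the counts were few. Orc1 had 15 to 384 reads per library, and the standard error of its group difference was 0.50, against 0.13 for Rfc5.

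**Figure D1:**
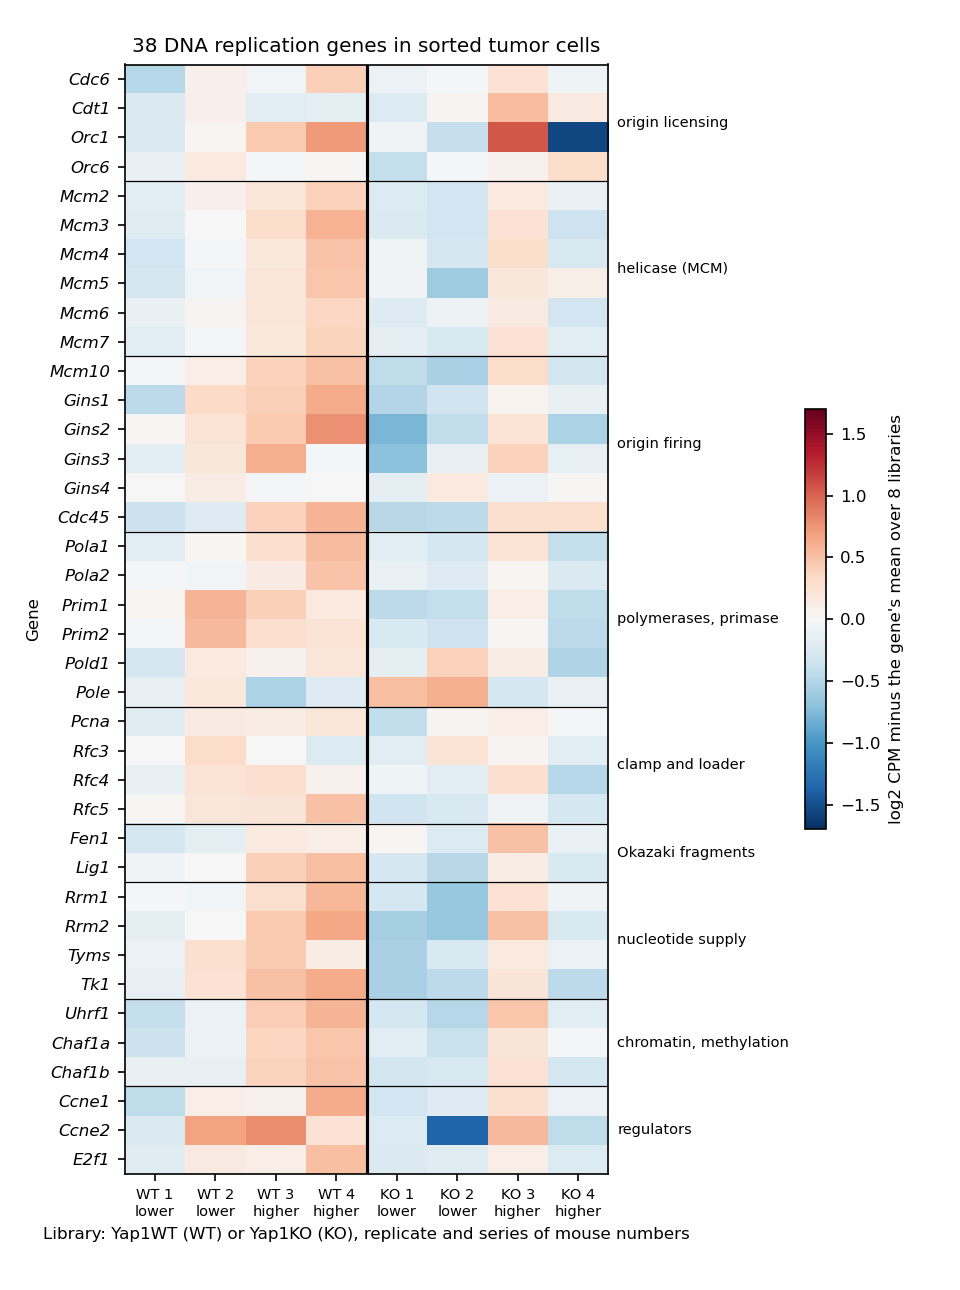
Heat map of 38 DNA replication genes (vertical axis, grouped by role) in 8 libraries (horizontal axis, Yap1WT left and Yap1KO right of the black line). Color gives log2 CPM minus the mean of that gene over the 8 libraries, red above and blue below it. Yap1WT replicate 4 was the highest library for 24 genes, and Yap1KO replicate 3 was the highest of the Yap1KO libraries for 32.

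The first comparison asked whether the replication genes differed between tumors with and without Yap1. Levels leaned to the lower side in Yap1KO by a small amount. Of the 38 genes, 35 had log2 fold changes below 0, the median was -0.25 against -0.01 over all genes tested, and single genes ranged from -0.72 (Gins2) to 0.38 (Pole). None passed edgeR's test over all genes in either direction, where 2.34% of all genes passed as lower and 3.52% as higher. In simulated counts this test recovered 5.97% of genes changed 1.5-fold and 62.1% of those changed 2-fold. The lack of calls therefore does not show that the 38 genes were unchanged. At an unadjusted p under 0.05, 7 of the 38 lay lower and 0 higher, against 8.96% and 11.5% of all genes. The 7 became 12 without Yap1WT replicate 1, 4 without Yap1WT replicate 4 and 16 without Yap1KO replicate 3, against 8.49%, 7.76% and 8.92% of all genes. With DESeq2, which called 4.35% of all genes lower, 3 of the 38 passed, namely Prim1, Prim2 and Rfc5, and with limma-voom, which called 2.85% lower, 0 passed. The summed level of the 38 genes was 967, 1140.0, 1277 and 1429 CPM in the Yap1WT libraries and 917, 908, 1253 and 954 CPM in the Yap1KO libraries, so that Yap1KO replicate 3 lay among the Yap1WT libraries while the other 3 Yap1KO libraries lay below every Yap1WT library. Genes with all 4 Yap1KO libraries below all 4 Yap1WT libraries were 1 of 38, Rfc5, against 6.0% of all genes, and 0 had all Yap1KO libraries above, against 7.18%.

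When the model held a term for the series of mouse numbers, 3 of the 38 genes were lower in Yap1KO, namely Tk1, Rfc5 and Lig1, against 3.34% of all genes, and at an unadjusted p under 0.05 there were 11 lower and 1 higher, against 10.4% and 12.4%. The adjusted p of these 3 genes lay just under the threshold, from 0.0466 to 0.0499. In that model, leaving out any of 6 libraries in turn left 0 genes past the test, leaving out Yap1KO replicate 1 left 1 (Lig1, against 3.31% of all genes), and leaving out Yap1KO replicate 3 gave 5 (against 2.52%). DESeq2 with the same term called 8 genes lower (Tk1, Rfc5, Gins2, Lig1, Prim1, Mcm10, Rrm1 and Prim2), against 5.95% of all genes, and limma-voom called 2 (Gins2 and Rfc5), against 4.16%.

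**Figure D2:**
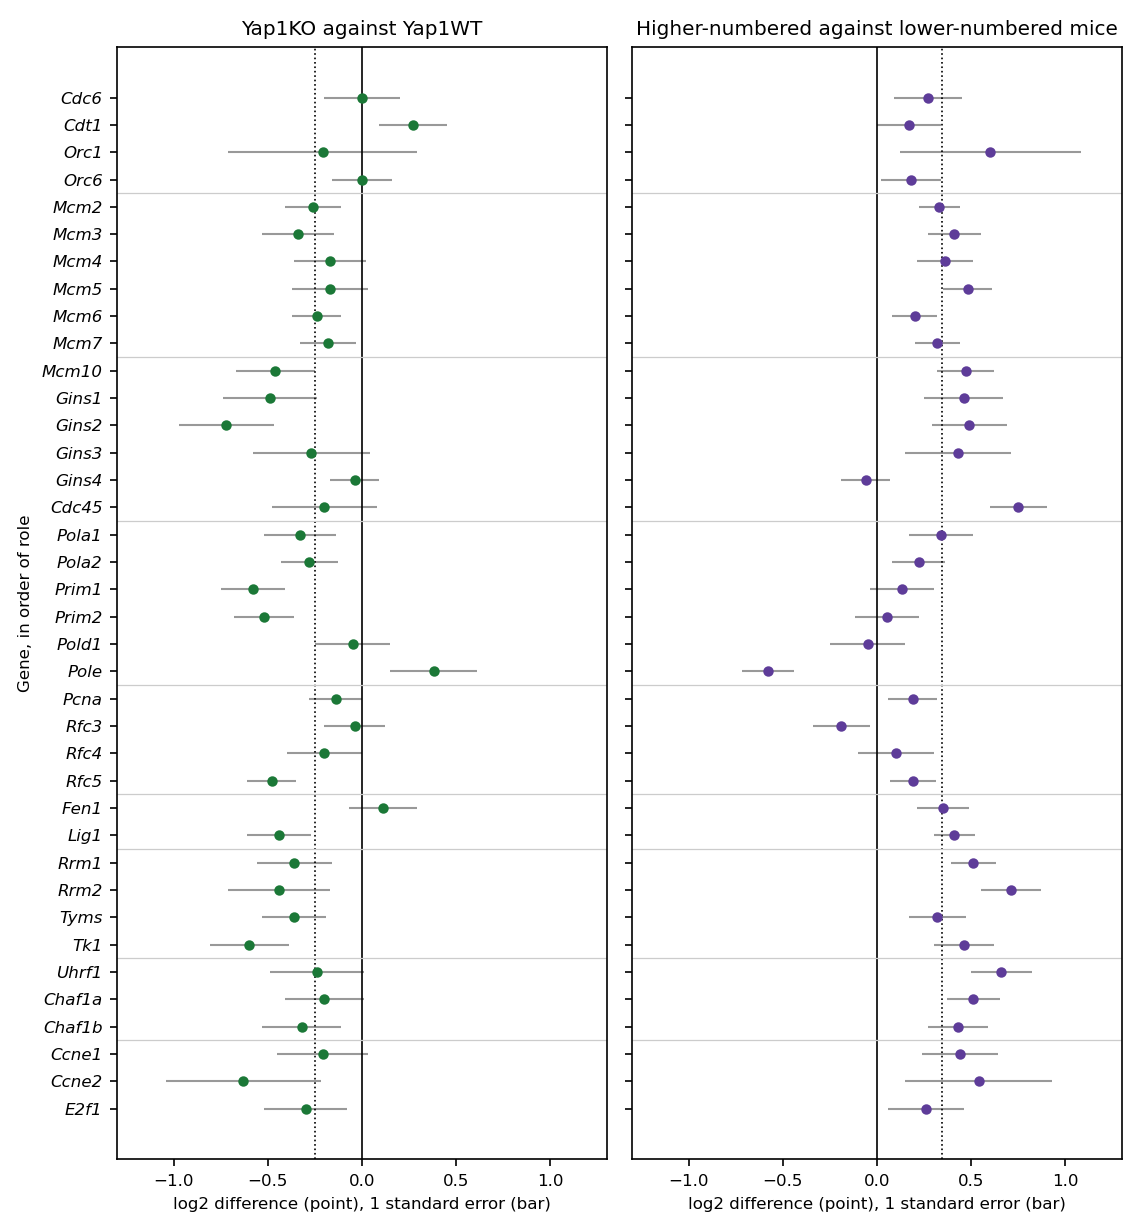
Log2 difference of each of the 38 genes (vertical axis, in order of role) between Yap1KO and Yap1WT (left) and, in the model with both terms, between the higher-numbered mice and the lower-numbered mice (right). Points are edgeR estimates, bars are 1 standard error, and the dotted lines are the medians, -0.25 and 0.34. Most genes lie left of 0 in the first panel and right of 0 in the second.

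Among the 4 genes that license origins, 0 passed the test in the comparison of the groups. The log2 fold changes were -0.21 for Orc1, -0.00 for Orc6 and Cdc6, and 0.27 for Cdt1, the loading factor that the cell destroys once S phase begins. Orc1 had 2.04, 2.48, 3.29 and 3.99 CPM in the Yap1WT libraries and 2.32, 1.86, 5.02 and 0.83 CPM in the Yap1KO libraries, and the Yap1KO values spanned the whole range (standard error 0.50, adjusted p = 0.861). It overlaps Prpf38a, a gene with more reads, and without strand the reads of the overlap cannot be told apart. Without Yap1KO replicate 4 its log2 fold change turned to 0.07, and to 0.13 in the model with the series of mouse numbers.

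The 6 subunits of the MCM ring all lay below 0, with log2 fold changes from -0.34 (Mcm3) to -0.17 (Mcm4 and Mcm5). Mcm2 had 42.2, 50.8, 54.8 and 62.6 CPM in the Yap1WT libraries and 40.4, 37.97, 53.3 and 44.1 CPM in the Yap1KO libraries (log2 difference -0.26 with standard error 0.15, adjusted p = 0.371). Mcm6 had 90.4, 101, 113 and 125 CPM in the Yap1WT libraries and 84.7, 92.2, 109 and 78.7 CPM in the Yap1KO libraries (log2 difference -0.24 with standard error 0.13, adjusted p = 0.367). For both genes the groups overlapped, and Yap1KO replicate 3 lay above 2 of the Yap1WT libraries. Yap1KO replicate 4 for Mcm2 and Yap1KO replicate 2 for Mcm6 also lay above Yap1WT replicate 1. None of the 6 had an unadjusted p under 0.05 in the comparison of the groups.

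The factors that fire origins held the lowest log2 fold change of the 38 genes. Gins2, a subunit of the GINS complex, had 12.6, 14.6, 16.9 and 21.3 CPM in the Yap1WT libraries and 7.27, 9.28, 14.6 and 8.57 CPM in the Yap1KO libraries, a difference of 1.64-fold (log2 difference -0.72 with standard error 0.25, adjusted p = 0.135). Of Yap1KO, replicate 3 alone reached the Yap1WT range, and without it the log2 fold change was -0.97 and passed the test (adjusted p = 0.042). Leaving out the highest Yap1KO library lowers this value by construction. No other single library left out of this comparison gave Gins2 a call. Mcm10, which holds the fork machinery together at firing, had 23.9, 26.2, 32.0 and 34.5 CPM in the Yap1WT libraries and 17.9, 16.6, 30.3 and 19.5 CPM in the Yap1KO libraries (log2 difference -0.46 with standard error 0.21, adjusted p = 0.240). Again only Yap1KO replicate 3 lay within the Yap1WT range. The other GINS genes had log2 fold changes of -0.49 (Gins1), -0.27 (Gins3) and -0.04 (Gins4) in the same comparison, and whether the subunits differed from each other was not tested. Gins2 overlaps Gse1, a gene with more reads, by 118 bases.

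Both primase genes were among those with the smallest p. Prim1, the catalytic subunit that makes the RNA primers, had 22.8, 33.2, 29.5 and 24.9 CPM in the Yap1WT libraries and 16.4, 16.8, 24.1 and 16.5 CPM in the Yap1KO libraries, 1.49-fold lower (log2 difference -0.58 with standard error 0.17, adjusted p = 0.0894, and 0.0317 with DESeq2). Prim2, its partner, had 17.3, 25.7, 21.5 and 20.8 CPM in the Yap1WT libraries and 14.8, 13.8, 17.8 and 13.0 CPM in the Yap1KO libraries (log2 difference -0.52 with standard error 0.16, adjusted p = 0.102, and 0.0467 with DESeq2). In each case Yap1KO replicate 3 alone lay above the lowest Yap1WT library. The subunits of polymerase alpha that work with primase, Pola1 and Pola2, showed log2 fold changes of -0.33 and -0.28, and Pold1, the catalytic subunit of the lagging strand polymerase, of -0.05. Pole, the catalytic subunit of the leading strand polymerase, went the other way. It had 22.3, 27.7, 16.9 and 21.2 CPM in the Yap1WT libraries and 35.0, 37.2, 19.9 and 22.7 CPM in the Yap1KO libraries (log2 difference 0.38 with standard error 0.23, adjusted p = 0.391), and the 2 high libraries were both from the lower-numbered mice.

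Of the clamp and its loader, Rfc5 had the smallest p of all 38 genes. This subunit of the RFC complex, at chr5:117379145-117389023, had 23.5, 26.5, 26.9 and 32.7 CPM in the Yap1WT libraries and 18.3, 19.3, 22.1 and 18.7 CPM in the Yap1KO libraries, 1.40-fold lower (log2 difference -0.48 with standard error 0.13, adjusted p = 0.0704, 0.0254 with DESeq2 and 0.0466 with the series term). Every Yap1KO library lay below every Yap1WT library, by 23.5 against 22.1 CPM at the closest. The other loader subunits differed less, with log2 fold changes of -0.20 (Rfc4) and -0.04 (Rfc3). Rfc3 had 21.0, 26.0, 20.8 and 17.8 CPM in the Yap1WT libraries and 18.5, 24.6, 21.7 and 18.6 CPM in the Yap1KO libraries, and the values of Yap1KO lay within the range of Yap1WT. Its log2 fold change turned above 0, to at most 0.07, when Yap1WT replicate 2, Yap1KO replicate 1 or Yap1KO replicate 4 was left out. Pcna had 47.9, 61.3, 60.2 and 63.3 CPM in the Yap1WT libraries and 41.3, 57.0, 59.5 and 53.8 CPM in the Yap1KO libraries (log2 difference -0.14 with standard error 0.14, adjusted p = 0.636).

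Lig1, the ligase that seals the lagging strand (chr7:13277175-13311426), had 43.1, 45.2, 59.9 and 64.5 CPM in the Yap1WT libraries and 37.1, 32.6, 49.2 and 37.8 CPM in the Yap1KO libraries (log2 difference -0.44 with standard error 0.17, adjusted p = 0.170, and -0.43 with adjusted p = 0.0499 with the series term). Within each series both Yap1KO mice lay below both Yap1WT mice. Fen1, the nuclease that trims the same fragments, lay at 0.11 on the log2 scale (standard error 0.18, adjusted p = 0.785), and without Yap1KO replicate 3 that value was -0.06.

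All 4 genes of nucleotide supply had log2 fold changes from -0.60 to -0.36. Tk1, the salvage enzyme for thymidine (chr11:117815519-117826087), had 27.4, 35.7, 42.5 and 46.9 CPM in the Yap1WT libraries and 20.6, 22.2, 35.0 and 22.2 CPM in the Yap1KO libraries, 1.52-fold lower (log2 difference -0.60 with standard error 0.21, adjusted p = 0.134, and 0.0473 with the series term). Rrm1, the large subunit of ribonucleotide reductase, had 95.4, 94.8, 118 and 145 CPM in the Yap1WT libraries and 79.8, 62.8, 116 and 93.4 CPM in the Yap1KO libraries (log2 difference -0.36 with standard error 0.20, adjusted p = 0.342). Its small subunit Rrm2 had 33.0, 36.8, 50.2 and 58.2 CPM in the Yap1WT libraries and 24.8, 23.6, 52.0 and 30.7 CPM in the Yap1KO libraries (log2 difference -0.44 with standard error 0.27, adjusted p = 0.408). In Tk1, Rrm1 and Rrm2, replicates 3 and 4 were the highest of Yap1WT and replicate 3 the highest of Yap1KO. Tyms, which makes thymidylate, had 25.0, 32.6, 36.7 and 29.3 CPM in the Yap1WT libraries and 18.4, 22.4, 30.1 and 25.1 CPM in the Yap1KO libraries (log2 difference -0.36 with standard error 0.17, adjusted p = 0.275).

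The genes that copy chromatin and methylation had log2 fold changes of -0.24 (Uhrf1, which brings the maintenance methyltransferase to new DNA), -0.20 (Chaf1a) and -0.32 (Chaf1b), the last 2 being subunits of the histone chaperone CAF-1. The regulators were the lowly expressed Ccne2 (-0.63), Ccne1 (-0.21) and E2f1 (-0.30). Ccne2, the cyclin E2 that drives entry into S phase with Cdk2, had 2.78, 5.29, 5.68 and 3.88 CPM in the Yap1WT libraries and 2.79, 1.28, 4.80 and 2.43 CPM in the Yap1KO libraries, and its standard error of 0.41 left the difference short of the test (adjusted p = 0.445). It also overlaps Ints8, which had more reads.

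**Figure D3:**
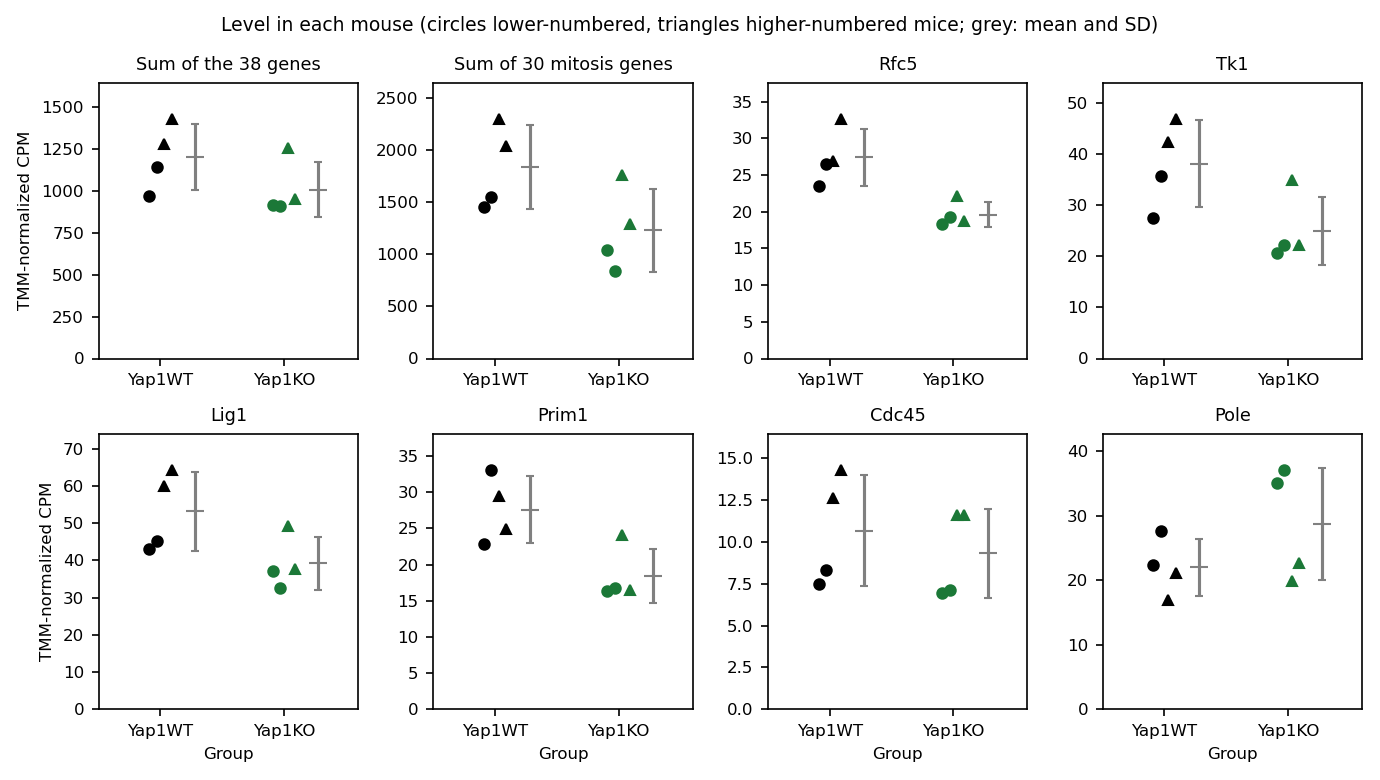
TMM-normalized CPM (vertical axes, each from 0) in each of the 8 mice by group (horizontal axes), for the sum of the 38 genes, the sum of 30 mitosis genes and 6 single genes. Circles are lower-numbered mice, triangles higher-numbered mice, and grey marks the mean and SD of 4 mice. In Rfc5 the groups do not overlap, in Tk1, Lig1 and Prim1 the highest Yap1KO point is the triangle of replicate 3, and Cdc45 splits by series in both groups.

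The second comparison was between the series of mouse numbers. The 38 genes leaned to higher levels in the higher-numbered mice. In the model with both terms, 34 of the 38 were above 0, with a median of 0.34 on the log2 scale against -0.01 over all genes tested, which is larger in size than the median difference between the groups. None passed edgeR's adjusted test, by which 0.0148% of all genes were higher and 0.0370% lower, and the smallest adjusted p was 0.105. At an unadjusted p under 0.05, 16 were higher and 1 lower, against 6.04% and 6.97% of all genes. The 16 fell to 8 without Yap1WT replicate 1 and to 9 without Yap1KO replicate 3, against 4.77% and 5.14% of all genes. DESeq2 called 7 higher (Cdc45, Rrm2, Rrm1, Uhrf1, Chaf1a, Mcm5 and Lig1) and 1 lower (Pole), against 1.64% and 1.79% of all genes, and limma-voom called 0.

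Cdc45, a core part of the active helicase, had the largest series term. It had 7.47 and 8.31 CPM in Yap1WT and 6.95 and 7.10 CPM in Yap1KO among the lower-numbered mice, and 12.6 and 14.3 CPM in Yap1WT and 11.6 and 11.6 CPM in Yap1KO among the higher-numbered mice (log2 difference 0.75, standard error 0.15, adjusted p = 0.105). The 4 higher-numbered mice lay above the 4 lower-numbered ones, by a fold of 1.68, while the groups differed little (log2 fold change -0.20, standard error 0.28). It overlaps Ufd1, which had more reads. Rrm2 (0.71, standard error 0.16), Uhrf1 (0.66, standard error 0.16) and Orc1 (0.60, standard error 0.48) followed. Uhrf1 had 24.7 and 30.4 CPM in Yap1WT and 26.7 and 23.4 CPM in Yap1KO in the lower-numbered mice, and 43.5 and 48.9 CPM in Yap1WT and 45.4 and 28.6 CPM in Yap1KO in the higher-numbered ones. Pole had the opposite sign (-0.58, standard error 0.14, adjusted p = 0.142), and Rfc3 followed it at -0.19. In Yap1WT, both higher-numbered mice lay above both lower-numbered mice for 22 of the 38 genes, against 20.4% of all genes. In Yap1KO this held for 14, against 16.5%, and in both groups at once for 10, against 6.19%.

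Within each series most of the 38 genes lay below 0 in Yap1KO. Among the lower-numbered mice, 34 of the 38 genes were below 0 in Yap1KO with a median of -0.17. Among the higher-numbered mice, 33 were below 0 with a median of -0.30. With 2 mice against 2, edgeR called 0 of the 38 genes in either series, against 0.311% and 1.27% of all genes lower and 0.429% and 1.81% higher. On the higher side, 1 gene in each series had an unadjusted p under 0.05, Pole (0.53) and Cdt1 (0.53), against 5.82% and 8.48%. On the lower side, the side of the leave-out counts below, 7 and 4 genes had such a p, against 4.66% and 6.86%. These counts rested on single mice, since leaving out 1 mouse leaves 1 against 2 in its series, with a spread shared over the fit. In the first series 0 genes had such a p without Yap1WT replicate 2 (against 2.89% of all genes), and 23 of the 38 then lay below 0. Without Yap1WT replicate 1, Yap1KO replicate 1 or Yap1KO replicate 2, 36, 31 and 31 lay below 0. The number with such a p was 3 without Yap1WT replicate 3 and 2 without Yap1WT replicate 4, against 4.12% and 4.18% of all genes. It was 8 without Yap1KO replicate 3 and 8 without Yap1KO replicate 4, against 4.90% and 4.96%. In the second series it was 15 without Yap1KO replicate 3 (against 9.64%) and 0 without Yap1WT replicate 4 or Yap1KO replicate 4 (against 5.30% and 5.17%), where 32 and 28 lay below 0. DESeq2 and limma-voom also called 0 in each series. Both Yap1KO mice lay below both Yap1WT mice for 16 genes in the first series (against 20% of all genes), for 20 in the second (against 24.3%), and for 14 in both, against 10.6%. These 14 were Mcm2, Mcm3, Mcm10, Rrm1, Tk1, Gins2, Cdc45, E2f1, Lig1, Pola2, Prim1, Prim2, Rfc5 and Chaf1b. The test of whether the group difference itself differed between the series called 0 of the 38 genes by edgeR, DESeq2 and limma-voom. Of all genes, 0.00% passed by edgeR and limma-voom, and 0.00740% passed as higher by DESeq2. By edgeR, 0 of the 38 had an unadjusted p under 0.05, against 0.755% of all genes lower and 0.992% higher. The smallest unadjusted p was 0.133 (Cdt1). Across the 38 genes, the differences in the first and second series had a Pearson r of 0.58 and a Spearman rho of 0.59, as a description only, since genes of 1 library share its depth and its cells.

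**Figure D4:**
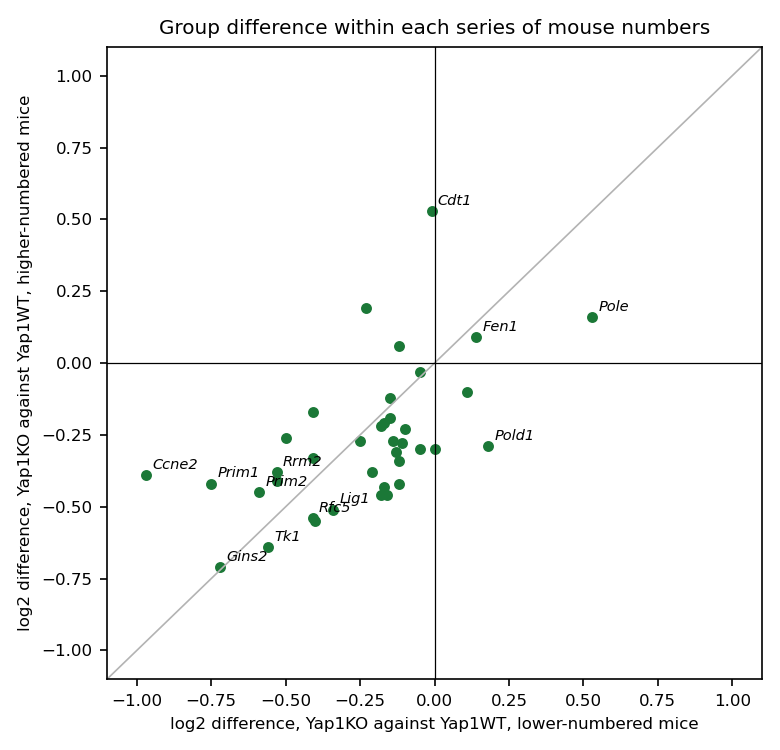
Log2 difference of Yap1KO against Yap1WT for each of the 38 genes among the lower-numbered mice (horizontal axis, 2 against 2) and among the higher-numbered mice (vertical axis, 2 against 2). The grey line marks equal differences. Most genes lie in the lower left, with Gins2 at -0.72 and -0.71, while Pole (0.53 and 0.16) and Cdt1 (-0.01 and 0.53) lie apart from the rest.

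Among the Yap1KO libraries, replicate 3 had the highest summed level of the 38 genes. It was the highest of the 4 Yap1KO libraries for 32 of the 38 genes, against 21.8% of all genes, and lay above the Yap1WT mean for 26, against 47.5%. Without it, 4 genes were lower in Yap1KO (Tk1, Prim1, Gins2 and Mcm10, log2 fold changes from -0.97 to -0.69), against 2.02% of all genes, and the median over the 38 was -0.38. As replicate 3 was the highest Yap1KO library for each of these 4 genes, leaving it out lowers their values by construction. Leaving out any other single library left 0 past the test and a median from -0.36 to -0.16. This library had the most counts of the Yap1KO group, 74278015, and its summed endothelial and fibroblast markers (927 and 1028 CPM) lay inside the range of the other Yap1KO libraries. At the other end of the range, Yap1WT replicate 4 was the highest of all 8 libraries for 24 genes. It had the fewest counts of Yap1WT, 27607755, and the most endothelial and fibroblast marker RNA of that group, and the part of these in its replication levels was not tested.

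Other genes of DNA replication, 82 in all and none of them among the 38, served as a frame for these results. Their median log2 fold change was -0.18, with 69 below 0. By edgeR's test 0 were lower and 2 higher, against 2.34% and 3.52% of all genes. When p was left unadjusted at 0.05 there were 8 and 2, against 8.96% and 11.5%. The 2 that were higher were Pold3, an accessory subunit of polymerase delta (log2 difference 0.62 with standard error 0.13, adjusted p = 0.025), and Samhd1, which breaks down deoxynucleotides (log2 difference 0.71 with standard error 0.18, adjusted p = 0.0479). Pold3 had 81.8, 112, 87.4 and 86.8 CPM in the Yap1WT libraries and 127, 156, 161 and 121 CPM in the Yap1KO libraries, with no overlap between the groups, and Samhd1 had 22.9 to 36.2 CPM in the Yap1WT libraries and 35.1 to 56.5 CPM in the Yap1KO libraries. Pold3 lost its call when any of 5 libraries was left out, and Samhd1 when any of 6 was, with RLE size factors, with no scaling or with the filter at 4 libraries. Of 15 further genes of origin and helicase loading, 0 passed the test, with a median of -0.19, and Orc3 (-0.23) and Mcmbp (-0.28) had an unadjusted p under 0.05. Of 25 further fork genes, 0 were lower and 1 was higher (Pold3). Of 10 further genes of nucleotide supply, 1 was higher (Samhd1) and Dck, the salvage kinase for deoxycytidine, was next (-0.62, adjusted p = 0.0964). Of 12 genes of chromatin on new DNA, 0 passed and all 12 were below 0, with a median of -0.14. Of 20 further genes of E2F control and the S-phase kinases, 0 passed. At an unadjusted p under 0.05, where 8.96% of all genes were lower, 5 were lower and 0 higher. These included Ccna2, the cyclin that works through S phase and G2 (-0.85, adjusted p = 0.123, and 0.0149 with the series term), E2f7, an E2F that represses transcription (-1.41, adjusted p = 0.151), Atr, the kinase that senses stalled forks (-0.44, adjusted p = 0.128), and Cdk2 (-0.32, adjusted p = 0.153).

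Genes of mitosis, whose RNA peaks after S phase, had log2 fold changes further below 0. Of 30 such genes, 29 were below 0, with a median of -0.51. At an unadjusted p under 0.05, 14 were lower, against 8.96% of all genes. By edgeR's adjusted test 0 passed, with the series term 14 did, and with DESeq2 7 did (against 2.34%, 3.34% and 4.35% of all genes lower). Among these, Cdc20, the activator of anaphase, lay at -0.89 on the log2 scale (adjusted p = 0.084, and 0.00731 with the series term). For Mki67, which encodes the proliferation marker Ki67, the value was -0.94 (adjusted p = 0.150, and 0.0101 with the series term). Cdk1 had -0.31 (adjusted p = 0.490). Top2a, the topoisomerase that untangles chromosomes, had -0.41 (adjusted p = 0.498), but was counted among the further fork genes and not among the 30. The summed level of the 30 mitosis genes was 1453, 1555, 2300.0 and 2042 CPM in the Yap1WT libraries and 1040, 835, 1757 and 1295 CPM in the Yap1KO libraries. It shared with the 38 replication genes the high Yap1KO replicate 3 and the higher levels of the higher-numbered mice. Whether the 2 lists differed in size from each other was not tested.

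The promoters of the 38 genes were read for the words that E2F factors bind, since these genes share that control in textbook knowledge. RefSeq windows on GRCm38.p6 were at hand for 31 of the 38 genes, and the 250 bases before each transcript start in that table were searched on both strands for 4 words of the E2F type, which are TTCCCGC, its relative TTCGCGC, the further word TTGCCGC and its relative TTGGCGC. These words can overlap each other, and each match was counted. At least 1 was found for 15 of 31 genes, 48.4%, against 9.01% of 27025 genes with a window. The share was 34.8% for the other DNA replication genes and 15.4% for the mitosis genes. In these counts, all genes means every gene with a window, not only the 13508 tested. The share among the tested genes was not counted. Of the 36 windows of these genes, 11 start more than 50 bases inside the gene as RefSeq bounds it, among them those with the words of Orc1, Cdc6 and Fen1. With only windows at the outer end of the gene, a choice made after seeing the data, 10 of 25 genes held a word, against 7.29% of 21982 genes. The NF-Y word CCAAT was found for 58.1% of the 31 genes, 80.8% of the mitosis genes and 37.5% of all genes. The CHR word TTTGAA, an element of genes expressed in G2 and mitosis, was found for 12.9%, 42.3% and 18.3%. The median log2 fold change was -0.24 for the 15 genes with an E2F-type word and -0.27 for the 16 without, and no test was made of these medians. For Mcm4, Gins1, Gins2, Gins4, Ccne2, Prim2 and Pole no window was read. Of the 12 genes with the smallest p in the model with the series term, those with an E2F-type word were Prim1, Rrm1 and Rrm2, and they are shown as examples of the word near and far from the start, with Mcm6 added, after its words had been seen, as the gene with the most. All 4 windows lie at the outer end of their gene. Each line holds the 250 bases before the gene start, 5′ to 3′ on the strand of the gene, with the words in capitals.
Prim1: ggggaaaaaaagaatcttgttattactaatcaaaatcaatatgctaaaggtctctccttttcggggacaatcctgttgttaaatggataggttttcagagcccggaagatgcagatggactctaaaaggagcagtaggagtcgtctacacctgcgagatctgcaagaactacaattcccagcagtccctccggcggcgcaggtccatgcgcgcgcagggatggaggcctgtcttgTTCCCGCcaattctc
Rrm1: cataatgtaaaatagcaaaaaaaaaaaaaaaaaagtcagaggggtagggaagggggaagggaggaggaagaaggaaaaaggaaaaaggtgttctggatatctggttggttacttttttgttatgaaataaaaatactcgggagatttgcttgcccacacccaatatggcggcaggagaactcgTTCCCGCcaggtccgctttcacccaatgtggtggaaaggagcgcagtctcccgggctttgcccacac
Rrm2: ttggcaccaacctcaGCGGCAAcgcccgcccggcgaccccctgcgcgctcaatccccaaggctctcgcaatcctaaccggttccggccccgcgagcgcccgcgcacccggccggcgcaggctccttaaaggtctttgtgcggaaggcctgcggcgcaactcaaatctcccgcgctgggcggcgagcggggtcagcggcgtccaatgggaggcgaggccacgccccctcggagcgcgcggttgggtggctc
Mcm6: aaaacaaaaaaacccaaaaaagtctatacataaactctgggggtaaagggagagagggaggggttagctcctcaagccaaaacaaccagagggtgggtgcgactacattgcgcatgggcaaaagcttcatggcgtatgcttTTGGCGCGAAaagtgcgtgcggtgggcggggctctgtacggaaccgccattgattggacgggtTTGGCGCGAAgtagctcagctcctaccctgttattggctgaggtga
The Prim1 window is chr10:128014965-128015214 on the plus strand, and its TTCCCGC starts at position -15 from the gene start. The Rrm1 window is chr7:102441445-102441694 on the plus strand, with the same word at -67. The Rrm2 window is chr12:24708004-24708253 on the plus strand, with TTGCCGC read on the opposite strand at -235. The Mcm6 window is chr1:128359706-128359955 on the minus strand. It holds pairs of overlapping words on opposite strands, the first pair at -109 and -106 and the second at -46 and -43. A match describes the letters in the window and was not measured as a bound site.

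**Figure D5:**
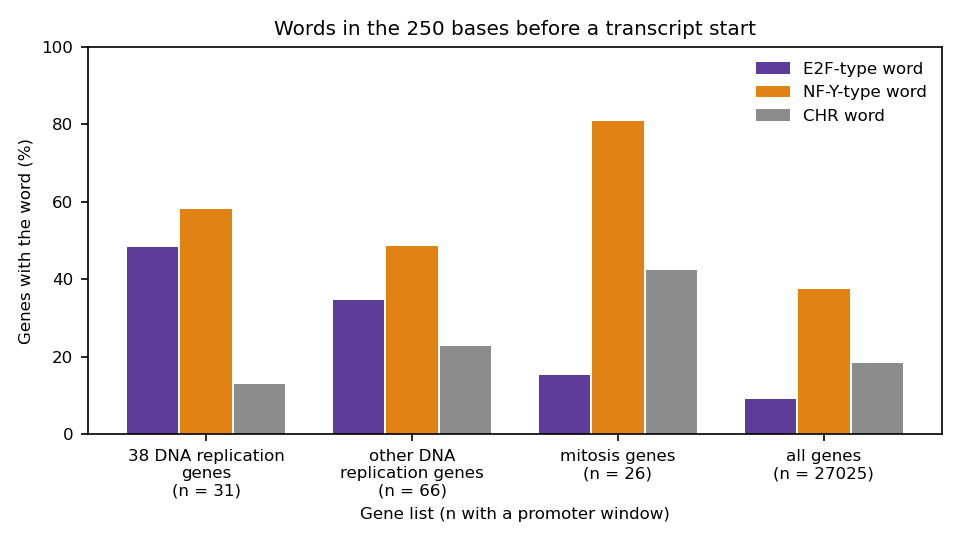
Share of genes (vertical axis, percent) with an E2F-type word, an NF-Y-type word or a CHR word in the 250 bases before a transcript start, for the 38 replication genes, the other DNA replication genes, the mitosis genes and all genes (horizontal axis, with the number that had a promoter window). The E2F-type word stands at 48.4% in the replication genes and 9.01% in all genes, while the other words are most frequent in the mitosis genes. All genes here are those with a window, tested or not.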

How the data were processed

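Bulk RNA of EpCAM-positive tumor cells was measured in 8 libraries, 4 Yap1WT and 4 Yap1KO, grouped by the titles of their labels. The authors prepared libraries using an unstranded kit, mapped paired reads (80 bp) onto GRCm38/mm10 by Subread, then made the deposited counts per RefSeq gene with featureCounts, as whole numbers without normalization. The authors also deposited log2 values per library (log2 RPKM from voom with quantile normalization). Their header names FPKM without a log. The sources do not describe the scaling by gene length. Versions of these tools are not given in the sources used here.

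Of 14 count columns, 8 were matched to samples by mouse number and 6 were not used. Of 27179 entries, 1312 lacked a symbol (35 were named through RefSeq and 1277 left out, 0.552% to 0.789% of counts), and 762 pseudogenes were left out. Genes above 0.5 CPM in at least 6 libraries were tested with edgeR 4.0.16 on R 4.3.3 (quasi-likelihood test, TMM scaling, with Benjamini-Hochberg adjusted p under 0.05 over 13508 genes). Standard errors are the log2 fold change over the root of F. Alternatives used DESeq2 1.42.0, limma 3.58.1 (voom with quantile normalization unless stated), other scalings and filters, the series of mouse numbers, the replicate number or sex as a term, and leaving out each library. The series term with other tools or fewer libraries, and promoter windows at the outer end of genes, were added after seeing the data. The scripts were tested on simulated data. There DESeq2 recovered 25.4% of genes changed 1.5-fold and made 43 false calls, against 5.97% and 8 for edgeR without the series term. Plots used Python 3.11.15 and matplotlib 3.10.9.

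The 38 genes, the other lists and the tests were chosen with earlier results of these data known. Genes were given per library when called, among the 12 smallest p of the model with the series term, not overlapping between groups, or at the ends of level, group difference or series term. Of other lists, up to 4 genes per direction with the smallest p were taken, beside Mki67, Top2a, Cdk1 and Yap1. Gene positions and promoters are from RefSeq on GRCm38.p6. The p-values judge each difference against the spread between these mice, which the tests take as independent. Nothing states that the mice were independent of litter, so p-values may be too small if mice of a group shared litters. The 11 members that overlap a protein-coding gene are Mcm7, Tk1, Gins2, Cdc45, Ccne2, E2f1, Fen1, Lig1, Rfc4, Orc1 and Chaf1a.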

Additional observations from a re-analysis of the deposited data

Results flagged for a closer look

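The CPM of the 38 genes was examined within each group of 4 mice, 76 groups in all, for a highest or lowest library whose gap to its neighbour took an unusual share of the range of the group. Chance gives such a gap in about 1 of 20 groups, and 7 were found. In 6 of the 7, Yap1KO replicate 3 was the high library, with a gap of 0.857 of the range for Mcm3, 0.835 for Mcm7, 0.89 for Tk1, 0.914 for E2f1, 0.945 for Prim1 and 0.933 for Chaf1b. For Prim1, for example, the other 3 Yap1KO libraries had 16.4 to 16.8 CPM and this library had 24.1 CPM. In the seventh, Yap1WT replicate 2 was the highest of Yap1WT for Gins4, with a gap of 0.84, at 19.0 CPM against 17.2 to 17.5 CPM. The 6 genes come from 1 library and are not independent of each other.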

How the results depend on the processing

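None of the 38 genes was higher in Yap1KO under any alternative to the edgeR comparison of the groups. The number lower, 0, became 3 with DESeq2, 2 with the replicate number as a block (against 4.08% of all genes), 3 with a term for the series of mouse numbers (8 with DESeq2 and 2 with limma-voom) and 1 with a term for sex (against 2.41%), and ranged from 0 to 4 when 1 library was left out of the comparison and from 0 to 5 with the series term. The remaining alternatives left it at 0. Over all 33 alternatives, 31 to 36 of the 38 genes lay below 0 and their median stayed between -0.38 and -0.16. Same-numbered replicates deviated together with correlations of 0.03, 0.348, 0.051 and 0.146, so the numbers were not taken to pair the mice. Of the 82 other replication genes, 3 were lower with DESeq2, 2 with the replicate block, 1, 7 and 3 with the series term by edgeR, DESeq2 and limma-voom, and 0 to 2 with 1 library left out. The number higher, 2, fell to 1 with limma-trend, RLE size factors, no scaling, the filter at 4 libraries or a sex term, and to 0 to 1 with 1 library left out. Of the 30 mitosis genes, 7 were lower with DESeq2, 16 with the replicate block, 14, 20 and 14 with the series term by edgeR, DESeq2 and limma-voom, and 0 to 11 with 1 library left out (11 without Yap1KO replicate 3, 6 without Yap1KO replicate 1 with the series term). For the series of mouse numbers, DESeq2 called 7 genes higher and 1 lower in the higher-numbered mice, and the other alternatives called 0. Of the genes given per library, with Cdt1 and Fen1, directions turned for Orc1 (0.07 and 0.13 without Yap1KO replicate 4, range -0.80 to 0.13), Rfc3 (0.01, 0.05, 0.06 and 0.07 without 1 library, range -0.13 to 0.07) and Fen1 (-0.06 and -0.01 without Yap1KO replicate 3, range -0.06 to 0.20 with 1 library left out and up to 0.23 over all alternatives). The causes were not tested. The fewest reads behind a value of the 38 genes were the 15 of Orc1 in Yap1KO replicate 4.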
